A study of Mus musculus with 16 samples.

Results

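The transcripts examined here build, break down or bind hyaluronan: the synthases Has1, Has2 and Has3, the degrading proteins Cemip, Hyal1 and Hyal2, the receptor Cd44, and the matrix proteins Vcan, Acan and Hapln1. They were chosen by gene name as the array design writes it, where Cemip stands under its older name 9930013L23Rik, and they make up 10 of the 28091 genes and 23 of the 41174 probes of the array. The set was chosen with earlier results of these data known. The mean signal over the 16 arrays made the brightest probe of a gene its main probe. The levels of the groups are therefore given as descriptions.

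The samples were aortas of female C57BL/6 mice that were ApoE deficient, a genotype that develops atherosclerosis. All 4 groups, the controls included, had lost their ovaries at an age of 4 to 5 weeks and received a high-fat Western-type diet while treated. Pellets placed under the skin 2 weeks after that surgery released placebo, MPA (medroxyprogesterone acetate) or NET-A (norethisterone acetate) over 90 days, and the aorta below the arch was collected after 78 to 90 days. MPA has the pregnane skeleton of progesterone and NET-A the estrane skeleton of nortestosterone, and both are synthetic progestins. The groups are called placebo_M, MPA, placebo_N and NET-A, with 4 arrays each. The M and N of the placebo titles, and the slides shared with a progestin, paired each placebo group with MPA or NET-A. The labels give no dose, and they do not say that the samples of a group were separate mice, and p-values then describe no more than the spread of these samples, which may be technical.

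Hyaluronan is a long unsulphated sugar chain that is made at the cell surface by the Has enzymes from UDP-sugars and extruded into the matrix. Cemip and the hyaluronidases cut the chain, Cd44 binds it on the cell surface, and versican (Vcan) and aggrecan (Acan) attach to it as large proteoglycans, held in place by the link protein Hapln1. In the arterial wall, hyaluronan and versican are known to accumulate in the thickened intima and in atherosclerotic lesions.

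A level is the log2 signal of a probe minus the 75th percentile of its array, so that 0 is the signal at that percentile. Between 46.3% and 60.6% of probes were well above background on the arrays of MPA and placebo_M, and between 62.3% and 78.5% on those of NET-A and placebo_N. The 2 experiments lay on different slides and were read with different software versions, so a difference in level between them cannot be told apart from these. The 8 smooth muscle markers on the array, among them Acta2 and Myh11, were well above background on all 16 arrays. The 7 brown adipocyte markers were too. In bulk tissue, fewer cells of a type and less RNA per cell cannot be told apart.

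Cemip and Hyal1 each had a pair of probes that overlap on the genome, and the bases below are shown because the results on both genes turn on how these probes relate. Each line gives 30 of the 60 bases of a probe, 5′ to 3′ on the strand of the transcript, from the array files annotated on build mm9. Capitals mark bases that the probe shares with its partner: 20 bases in Cemip, the same on both lines, and 50 in Hyal1, where each line shows a different stretch of 20 of them. The main probe of Cemip shares none and lies 13682 bases away from the nearer probe of the pair. Which exon or untranslated region each probe lies in was not analysed here.

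Cemip A_51_P107998, chr7:91095622-91095651, minus strand: gtgctcctgtggtctggaggaatgagactc

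Cemip A_51_P456114, chr7:91081850-91081879, minus strand: ctcagttcatTTCAGCAAATACCTATTGGA

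Cemip A_51_P456113, chr7:91081840-91081869, minus strand: TTCAGCAAATACCTATTGGAaagttctctg

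Hyal1 A_52_P144173, chr9:107481883-107481912, plus strand: cagtcacgggAATAGTCACATAGTGAATCA

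Hyal1 A_51_P479408, chr9:107481923-107481952, plus strand: CAGGCACTATCCATTCTGAGcctagaagga

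No gene passed the test in either comparison or in the difference between them, the 10 genes included. With limma and Benjamini-Hochberg adjustment over 15219 genes, 0% were called for MPA, over 20913 genes 0% for NET-A, and over 15089 genes 0% for the difference. At an unadjusted p under 0.05 there were 947, 1293 and 1022 genes. Of the 10 genes, 8 were bright enough to be tested for MPA, 10 for NET-A and 8 for the difference. Has1 and Has3 were left out for MPA because they were well above background on fewer than 4 of those 8 arrays. The tested members had a median log2 difference of 0.06 with MPA and -0.15 with NET-A, beside -0.00 and -0.03 over all genes tested.

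Probe by probe, 14 of the 23 member probes were tested for MPA and 19 for NET-A. With MPA, 2 of them had all 4 treated arrays above all 4 placebo arrays, both of Hyal1, and 0 had all of them below. Over all probes with a value on every array, 3.06% stood apart upwards and 1.12% downwards. With NET-A, 0 member probes stood apart upwards and 3 downwards, namely the overlapping pair of Cemip and a probe of Cd44, where the shares over all probes were 1.46% and 2.67%. The pairs of Cemip and of Hyal1 share bases and are not independent measurements. The NET-A count came to 3 of 19 probes and the MPA count to 2 of 14.

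**Figure D1:**
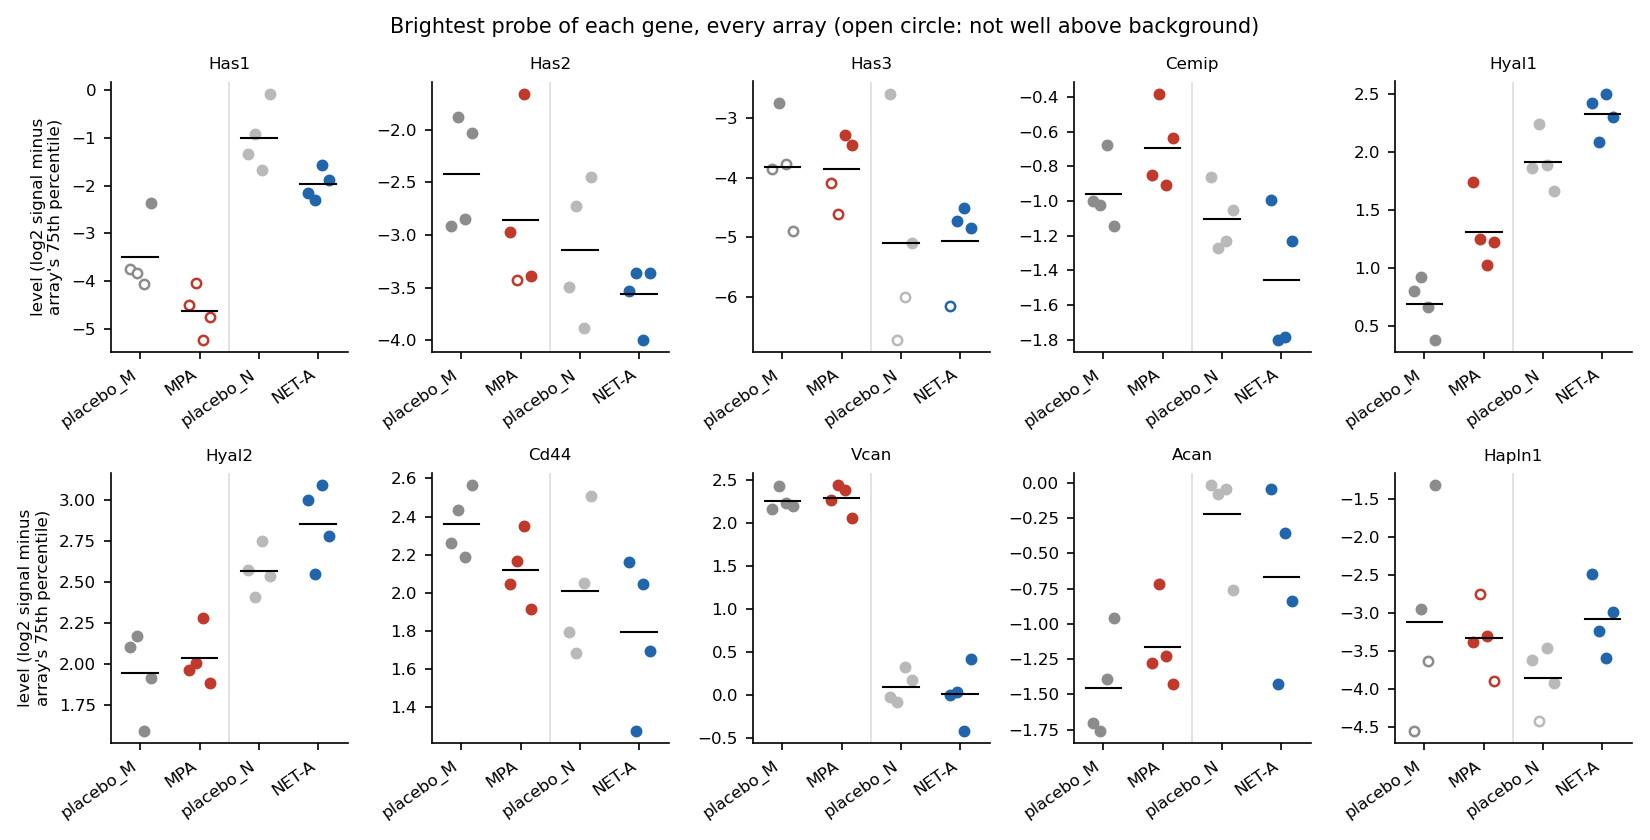
Level of the main probe of each gene on every array (vertical axes, log2 signal minus the 75th percentile of the array, a scale of its own in each panel) by group; points are arrays, lines are group means of 4 arrays, and open circles are spots not well above background. Hyal1 runs from 0.38 to 0.92 in placebo_M and from 1.03 to 1.74 with MPA, and Has1 has no filled point with MPA.

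Cemip, a secreted or cell-surface protein needed for hyaluronan depolymerization in skin fibroblasts, gave different values by probe. Its main probe, A_51_P107998, read -0.998, -1.02, -0.68 and -1.15 in placebo_M replicates 1 to 4 and -0.85, -0.38, -0.91 and -0.64 with MPA. It read -0.86, -1.27, -1.23 and -1.05 in placebo_N and -0.995, -1.80, -1.79 and -1.23 with NET-A. The groups overlapped in both experiments. These are log2 differences of 0.27 ± 0.17 (SE) with MPA and -0.35 ± 0.21 with NET-A (limma, adjusted p = 0.855 and 0.888).

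The overlapping pair of Cemip probes stood far lower with NET-A. Probe A_51_P456113 read -1.39, -1.01, -1.84 and -0.73 in placebo_N replicates 1 to 4 and -3.44, -5.56, -3.94 and -4.30 with NET-A. Its highest NET-A array lay below its lowest placebo_N array, and all 8 were well above background. The log2 difference was -3.06 ± 0.45 with a 95% interval from -4.08 to -2.04, a level 8.36 times lower. Among the 30976 probes tested for NET-A this was the lowest difference and the fifth smallest p-value, yet the adjusted p was 0.621 (limma). Its partner A_51_P456114 read -1.19, -1.48, -1.78 and -0.62 in placebo_N and -2.83, -5.20, -3.36 and -3.75 with NET-A, again without overlap. That log2 difference was -2.52 ± 0.49, 5.73 times lower (interval -3.64 to -1.40), with the same adjusted p of 0.621.

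The difference of the Cemip pair was present on each slide of that experiment. On slide 3, with 1 array a group, it was -2.05 for A_51_P456113 and -1.63 for A_51_P456114. On slide 4, also with 1 array a group, the values were -2.92 and -1.88, and on slide 5, with 2 a group, -3.64 and -3.28. Background correction with normexp gave smaller differences of -1.64 and -1.52. Taking the mean over all Cemip probes in place of the brightest moved the value of the gene from -0.35 to -1.56.

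With MPA, A_51_P456113 read -3.61, -3.55, -3.44 and -2.60 in placebo_M and -3.70, -2.80, -4.73 and -5.99 with MPA, and it was well above background on 3 placebo_M arrays and 1 MPA array. A_51_P456114 read -2.36, -1.89, -2.10 and -1.22 in placebo_M and -2.49, -1.61, -2.69 and -3.68 with MPA. The groups overlapped for both. The log2 differences of -1.004 ± 0.60 and -0.73 ± 0.41 (limma, adjusted p = 0.796 and 0.794) came from slide 2, where they were -2.34 and -1.53, against 0.33 and 0.07 on slide 1, and with normexp they turned to 0.67 and 0.27. They were -0.44 and -0.37 without MPA replicate 4, but -1.50 and -1.06 without MPA replicate 2 and -1.74 and -1.15 with array weights. The remaining Cemip probe, A_51_P211519, was well above background on 0 of 16 arrays.

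**Figure D2:**
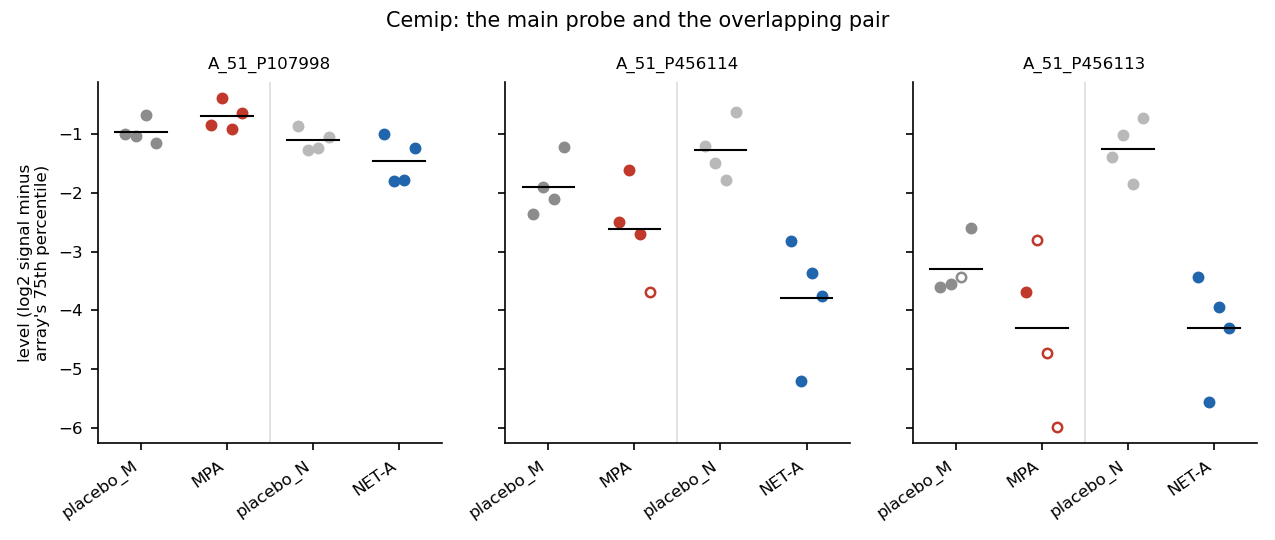
Levels of 3 Cemip probes on every array (vertical axis, log2 signal minus the 75th percentile of the array, shared by the panels) by group, with group means of 4 arrays as lines and spots not well above background as open circles. In the overlapping pair all NET-A arrays lie below all placebo_N arrays, while the main probe at the left overlaps.

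Markers of blood and immune cells differed in the same samples. All 8 platelet markers, none of them below background on every array, had higher values with NET-A and with MPA, and with NET-A their mean log2 level ran from -2.65 to -1.22 in placebo_N and from -1.03 to 0.41 with NET-A. All 8 macrophage markers had lower values with NET-A, from 0.42 to 1.79 in placebo_N and from 0.22 to 0.52 with NET-A. With MPA all 8 macrophage markers also had lower values, from 1.54 to 2.76 in placebo_M and from 1.33 to 1.58 with MPA. Neutrophil markers, 7 on the array, had higher values in 5 of 5 tested genes with MPA and in 5 of 6 with NET-A. Their mean level ran from -3.84 to -1.35 in placebo_M and from -1.13 to 0.31 with MPA, and from -3.36 to -2.57 and -2.61 to -1.75 in placebo_N and NET-A. Skeletal muscle markers, 10 on the array, had higher values in 9 of 9 tested genes with NET-A and lower ones in 4 of 4 with MPA. For MPA, Myh2 reached the brightness filter with 1 MPA array and 3 placebo_M arrays. A gene could pass that filter mainly through its brighter group, so counts of tested marker genes lean in part on the filter. The mean level of the skeletal muscle markers ran from -3.04 to -2.52 in placebo_N and from -2.69 to -1.02 with NET-A. With MPA it ran from -4.07 to -3.04. In placebo_M it was 2.07 on replicate 3, beside -3.45 to -2.07 on the other arrays, so the MPA values lean in part on that array. None of these marker genes passed the limma test. Over the 16 arrays, after subtracting the mean of each experiment, Pearson's r of A_51_P456114 was 0.60 with the macrophage mean and -0.68 with the platelet mean, and A_51_P456113 had -0.74 with the platelet mean. These arrays share slides and treatments, and the part of the marker genes in the Cemip values was not tested.

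Hyal1, a hyaluronidase of lysosomes, had higher values with both progestins. Its main probe A_52_P144173 read 0.80, 0.92, 0.67 and 0.38 in placebo_M replicates 1 to 4 and 1.74, 1.25, 1.03 and 1.22 with MPA. Every MPA array lay above every placebo_M array. The log2 difference was 0.62 ± 0.20 with an interval from 0.17 to 1.06, which is 1.53 times higher (limma, adjusted p = 0.741). It was 0.63 on slide 1 and 0.60 on slide 2. The probe that shares 50 bases with it, A_51_P479408, read 0.63, 1.01, 0.63 and -0.06 in placebo_M and 1.33, 1.41, 1.62 and 1.57 with MPA, also apart. Its log2 difference was 0.93 ± 0.22 (limma, adjusted p = 0.601), with 0.55 on slide 1 and 1.31 on slide 2.

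With NET-A, Hyal1 overlapped its placebo. The main probe read 1.86, 2.24, 1.89 and 1.66 in placebo_N and 2.42, 2.09, 2.50 and 2.31 with NET-A, where replicate 2 of NET-A lay below replicate 2 of placebo_N. The log2 difference was 0.41 ± 0.16 (limma, adjusted p = 0.762), with 0.56, 0.26 and 0.42 on slides 3, 4 and 5, and that of the other probe was 0.32 ± 0.16 (limma, adjusted p = 0.780). Both Hyal1 probes were correlated with the macrophage markers over the 16 arrays with r of -0.76 and -0.72, and with the neutrophil markers, which stood apart between MPA and placebo_M, with r of 0.37 and 0.50. The part of these cells in the result was not tested. Hyal2, a hyaluronidase anchored to the cell membrane and the neighbour of Hyal1 on chromosome 9 in the RefSeq table, had levels of 1.94 ± 0.26 (SD) in placebo_M, 2.03 ± 0.17 with MPA, 2.57 ± 0.14 in placebo_N and 2.86 ± 0.24 with NET-A. Its log2 differences were 0.09 ± 0.17 with MPA and 0.29 ± 0.15 with NET-A (limma, adjusted p = 0.950 and 0.860), and the groups overlapped in both.

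**Figure D3:**
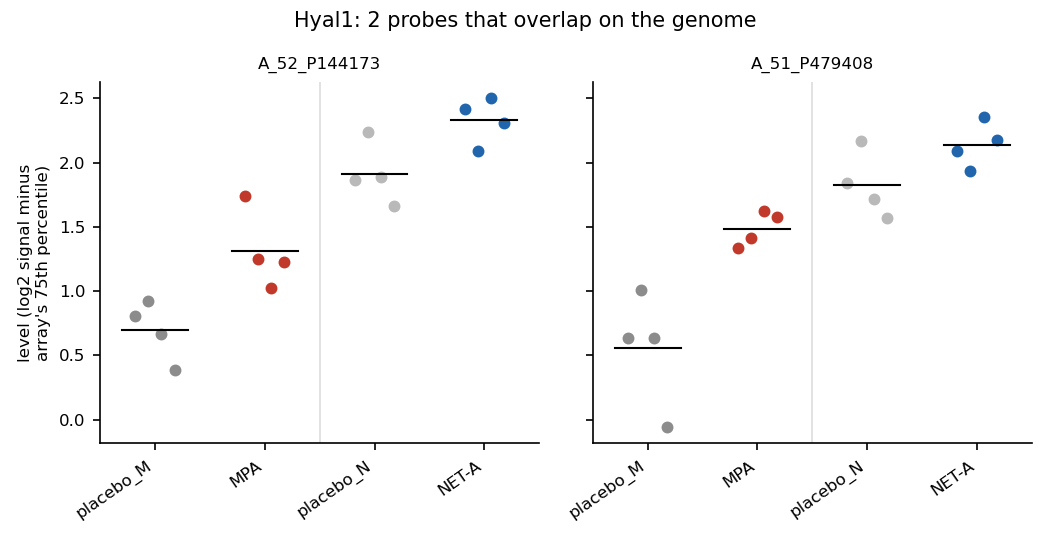
Levels of the overlapping Hyal1 probes on every array (vertical axis, log2 signal minus the 75th percentile of the array) by group; lines are means of 4 arrays. For both probes the MPA arrays lie above the placebo_M arrays, and NET-A and placebo_N overlap.

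Among the synthases, Has1 was measured well only in the NET-A experiment. Its main probe A_51_P492456, at chr17:17980413-17980472 on the minus strand, read -1.34, -0.91, -1.67 and -0.07 in placebo_N and -2.15, -2.30, -1.57 and -1.87 with NET-A. Only NET-A replicate 3 lay above the lowest placebo_N array, replicate 3. NET-A differed from placebo_N by -0.98 ± 0.34, 1.97 times lower, with an interval from -1.76 to -0.19 (limma, adjusted p = 0.710). The value was -0.67 without placebo_N replicate 4, the brightest of the placebo arrays. In the MPA experiment the main Has1 probe was well above background on 1 array, placebo_M replicate 4 at -2.36, and no fold is given. The other Has1 probe, A_52_P440436, was likewise well above background on 1 of 16 arrays, MPA replicate 1 at -3.37, and was tested in neither comparison.

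Has2, the main synthase of mesenchymal cells, had a mean of -2.42 ± 0.54 (SD) in placebo_M, -2.86 ± 0.83 with MPA, -3.14 ± 0.66 in placebo_N and -3.56 ± 0.30 with NET-A. The groups overlapped in both experiments. Has2 differed by -0.44 ± 0.42 with MPA, turning to 0.61 with normexp and to 0.11 as the mean over both Has2 probes, and -0.42 ± 0.33 with NET-A (limma, adjusted p = 0.892 and 0.927). The MPA value was -0.85 without MPA replicate 3 and -0.26 without MPA replicate 2, and the NET-A value was -0.67 without placebo_N replicate 3 and -0.19 without placebo_N replicate 4. The other Has2 probe, A_52_P327764, gave -0.36 ± 0.22 with NET-A, -0.14 without placebo_N replicate 4, and was well above background on only 2 of the 8 arrays of the MPA experiment. Has3, which makes shorter chains, was well above background on 3 and 5 of 8 arrays, and its difference of 0.05 ± 0.84 with NET-A has an interval from -1.88 to 1.97. Its placebo_N arrays alone ran from -6.72 to -2.59, so no difference was detectable at this signal.

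Cd44, the main receptor for hyaluronan, is read by 10 spots of probe A_52_P523459 on each array, whose SD within an array ran from 0.042 to 0.204 with a median of 0.092. That probe read 1.66, 2.03, 1.30 and 1.84 in placebo_M and 1.48, 0.85, 1.27 and 1.17 with MPA, where MPA replicate 1 lay above placebo_M replicate 3. MPA differed from placebo_M by -0.51 ± 0.21 with an interval from -0.98 to -0.05 (limma, adjusted p = 0.709). It read 1.32, 1.26, 1.34 and 2.08 in placebo_N and 1.11, 1.04, 1.105 and 1.15 with NET-A, and the groups did not overlap. That difference was -0.40 ± 0.19 (limma, adjusted p = 0.764), and -0.21 without placebo_N replicate 4. The NET-A arrays differed among themselves by an SD of 0.05.

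The main Cd44 probe, A_52_P229536, differed less, by -0.24 ± 0.16 with MPA and -0.21 ± 0.25 with NET-A (limma, adjusted p = 0.855 and 0.978), and its groups overlapped. On slides 3 and 4 its NET-A difference had the other sign, 0.37 and 0.36, with 1 array a group, and on slide 5 it was -0.79. Its NET-A value was -0.05 without placebo_N replicate 4 and -0.04 without NET-A replicate 2. The third probe, A_51_P407053, lay near background on all 8 arrays with MPA or placebo_M; its NET-A difference was -0.65 ± 0.33 with NET-A. The 10-spot probe had r of 0.82 with the macrophage markers, 0.81 with the fibroblast markers and -0.61 with the neutrophil markers over the 16 arrays after the experiment means were subtracted. For the main probe the same r were 0.63, 0.44 and -0.20. With the endothelial markers r was -0.61 for the main probe and -0.05 for the 10-spot probe. The 8 fibroblast markers, all above background on every array, ran from 5.47 to 6.44 in placebo_M, 5.53 to 6.13 with MPA, 4.45 to 5.04 in placebo_N and 4.53 to 4.82 with NET-A. Their part in the Cd44 values was not tested.

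**Figure D4:**
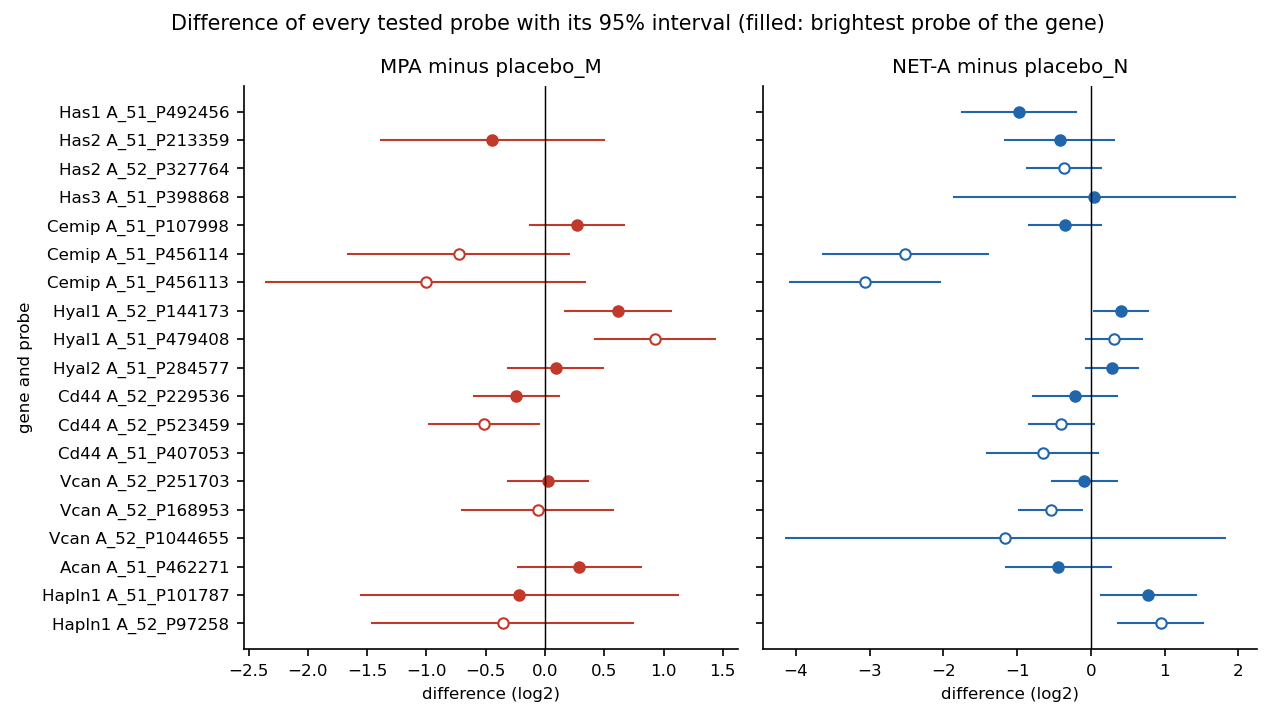
Log2 difference between progestin and placebo (horizontal axes, with their own scales) for every member probe that was tested, with its 95% interval from limma; filled points are main probes and open points the others, with MPA at the left and NET-A at the right. The pair of Cemip probes stands at -3.06 and -2.52 with NET-A, and the Hyal1 pair at 0.62 and 0.93 with MPA.

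Versican was the binding proteoglycan with the smallest differences at its main probe. A_52_P251703 had a mean level of 2.25 ± 0.12 (SD) in placebo_M and 2.28 ± 0.17 with MPA, and of 0.10 ± 0.19 in placebo_N and 0.01 ± 0.34 with NET-A. The log2 difference was 0.03 ± 0.15 with MPA (interval -0.30 to 0.36) and -0.09 ± 0.19 with NET-A (interval -0.53 to 0.35), and its sign turned under several settings. All 8 arrays of the MPA experiment lay above all 8 of the NET-A experiment, a gap that cannot be told apart from slide, software or tissue content. Several marker means also stood higher in placebo_M than in placebo_N. Fibroblast means were 5.47 to 6.44 beside 4.45 to 5.04, and brown adipocyte means 4.93 to 5.38 beside 3.70 to 4.16. Endothelial means were 2.06 to 2.68 beside 1.38 to 1.74, and platelet means -0.97 to -0.35 beside -2.65 to -1.22. Smooth muscle means overlapped, 5.07 to 5.53 beside 5.19 to 5.72. With the experiment means subtracted, the main Vcan probe had r of 0.12 with the fibroblast markers. The part of these markers in the gap was not tested. A second probe, A_52_P168953, spans 5855 bases of the genome with its 60 bases, as a probe across a splice junction does. It read -2.06, -2.30, -2.16 and -1.82 in placebo_N and -2.59, -2.78, -2.94 and -2.21 with NET-A, where only NET-A replicate 4 lay within the placebo range. That difference was -0.55 ± 0.19 with an interval from -0.97 to -0.12 (limma, adjusted p = 0.673), and with MPA it was -0.06 ± 0.28. Of the other 3 Vcan probes, A_52_P1044655 was tested for NET-A at -1.16 ± 1.30, a value that rests on placebo_N replicate 1, which read 0.48 beside -6.58 to -4.58 in the others, and which turned to 0.30 without it. The other two were well above background on at most 1 array.

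Aggrecan, the large proteoglycan of cartilage, was well above background on all 16 arrays. It read -1.70, -1.76, -1.39 and -0.96 in placebo_M and -1.28, -0.71, -1.23 and -1.42 with MPA. It read -0.02, -0.08, -0.04 and -0.76 in placebo_N and -0.04, -1.42, -0.36 and -0.84 with NET-A. The groups overlapped, and the log2 differences were 0.29 ± 0.23 with MPA and -0.44 ± 0.31 with NET-A (limma, adjusted p = 0.871 and 0.915). On slide 2 the MPA value was -0.15, and the NET-A value was -0.19 without NET-A replicate 2. That array was the lowest of the NET-A arrays for Acan, the Cemip pair and the main Cd44 probe, and its mean brown adipocyte marker level was 5.28 beside 2.83 to 3.54 on the other NET-A arrays. Its adipocyte mean was 3.98 beside 2.12 to 2.93, and its endothelial mean 2.28 beside 1.09 to 1.69. Over the 16 arrays Acan had r of -0.76 with the endothelial, -0.61 with the brown adipocyte and -0.60 with the adipocyte markers. With the smooth muscle markers r was 0.53, with the Schwann cell and neuron markers 0.42 and with the chondrocyte markers 0.39. The part of these markers in the Acan values was not tested. Of the 9 chondrocyte markers on the array, Matn1 and Matn3 were never well above background, and between 3 and 7 of them were on any 1 array. Their mean level was 0.92 on placebo_M replicate 4, beside -1.95 to -1.32 on the other placebo_M arrays. Placebo_M replicate 4 was also the highest of its group for Acan, at -0.96.

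Hapln1, the link protein, whose gene neighbours Vcan on chromosome 13 in the RefSeq table, was dim, with its main probe well above background on 4 of 8 arrays of the MPA experiment and 7 of 8 of the NET-A experiment. That probe, A_51_P101787, read -3.62, -4.41, -3.46 and -3.92 in placebo_N and -2.49, -3.24, -3.59 and -2.99 with NET-A, where only NET-A replicate 3 lay within the placebo range. The log2 difference was 0.78 ± 0.28 with an interval from 0.13 to 1.43 (limma, adjusted p = 0.729). The other probe, 649 bases away, read -5.12, -5.20, -4.27 and -5.32 in placebo_N and -3.73, -4.07, -4.34 and -3.97 with NET-A, with a difference of 0.95 ± 0.25 (limma, adjusted p = 0.634). Normexp turned both values, to -0.14 and -0.23. With MPA the main probe ran from -4.55 to -1.32 in placebo_M and from -3.89 to -2.75 with MPA. The difference was -0.22 ± 0.60, and 0.38 without placebo_M replicate 4. The other probe differed by -0.36 ± 0.49 with MPA (limma, adjusted p = 0.899), and by 0.10 without the same array. Placebo_M replicate 4 read -1.32 at the main probe and had the highest chondrocyte marker mean of its group, 0.92.

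The responses to the progestins were set against each other as MPA minus placebo_M less NET-A minus placebo_N, over the 16 arrays; whether the doses match is not known from the labels. For the overlapping Cemip probes both responses were negative, -1.004 and -0.73 with MPA and -3.06 and -2.52 with NET-A. The MPA response was less negative by 2.06 ± 0.79 (interval 0.37 to 3.74) and 1.79 ± 0.67 (interval 0.36 to 3.22). The adjusted p were 0.480 and 0.466 over 22152 probes (limma). Mean levels of A_51_P456113 were -3.30 in placebo_M, -4.30 with MPA, -1.24 in placebo_N and -4.31 with NET-A. Those of A_51_P456114 were -1.89, -2.62, -1.27 and -3.79. A_51_P456113 was well above background on only 4 of 8 arrays of the MPA experiment. The part of low signal and placebo level in these differences was not tested. The main Cemip probe gave 0.62 ± 0.27, with an interval from 0.04 to 1.19 (limma, adjusted p = 0.712). At their main probes, the other 7 genes tested had intervals that reached both sides of 0. They ran from -0.33 to 0.73 for Hyal1, from -0.68 to 0.28 for Hyal2, from -0.65 to 0.59 for Cd44 and from -0.38 to 0.61 for Vcan. For Acan, Has2 and Hapln1 they were wider, from -0.11 to 1.58, from -1.21 to 1.17 and from -2.50 to 0.52. The intervals that reached both sides of 0 do not show that the compounds acted alike on these genes.

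The wider pathway was read from 77 further genes on the array. In the MPA comparison 62 were tested, 0 passed in either direction, 17 had higher and 45 lower values, beside 49.5% higher over all genes tested, and the median log2 difference was -0.15. In the NET-A comparison 68 were tested, 0 passed, 31 had higher and 37 lower values, beside 44.9% higher over all genes, and the median was -0.05. For the difference between the responses 61 were tested and 0 passed, with 19 higher and 42 lower values, beside 51.2% higher. At an unadjusted p under 0.05 there were 6, 3 and 4 of them, or 9.68%, 4.41% and 6.56%, beside 6.22%, 6.18% and 6.77% over all genes tested. The counts by direction of the single lists stand beside the same shares of all genes and carry no test.

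The supply of UDP-sugars limits hyaluronan synthesis, and 7 of the 9 precursor genes had lower values with MPA and 5 of 9 with NET-A. With MPA the 3 smallest p-values were those of Gfpt2 and Gfpt1, isoforms of the first enzyme of the hexosamine pathway, and of Uap1, which makes UDP-N-acetylglucosamine. Gfpt2 differed by -0.70 ± 0.21, with all MPA arrays below all placebo_M arrays, Uap1 by -0.26 ± 0.18 and Gfpt1 by -0.20 ± 0.13. With NET-A they were the hexokinase Hk1 at 0.24 ± 0.18, Gfpt1 at -0.17 ± 0.13 and Pgm3 at -0.15 ± 0.15. None passed (limma, smallest adjusted p = 0.741 with MPA and 0.922 with NET-A).

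All 4 tested genes among the other hyaluronidases and fragment hydrolases had lower values with MPA, and 3 of 5 with NET-A. They include Gusb and Hexa, lysosomal enzymes that trim hyaluronan fragments, and Cemip2, a membrane relative of Cemip. Gusb differed by -0.37 ± 0.17 with MPA, without overlap, and by -0.34 ± 0.22 with NET-A. Cemip2 differed by -0.28 ± 0.19 with MPA and Hexa by -0.21 ± 0.15 with NET-A.

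Among 10 other receptors and their cytoskeletal partners, 8 had lower values with MPA and 6 with NET-A. The hyaluronan receptor layilin, Layn, differed by 0.65 ± 0.28 with MPA and by -0.31 ± 0.13 with NET-A, where all NET-A arrays lay below all placebo_N arrays. Its response was higher with MPA by 0.96 ± 0.31 (limma, adjusted p = 0.545). Moesin, Msn, which ties Cd44 to actin, differed by -1.01 ± 0.40 with MPA, Hmmr by -0.63 ± 0.39 with MPA and -0.64 ± 0.32 with NET-A, and Tlr2 by -0.39 ± 0.22 with NET-A.

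Of the other binding and cross-linking proteins, 8 of 12 tested had lower values with MPA and 11 of 17 with NET-A. Tnfaip6, which transfers heavy chains onto hyaluronan, differed by -0.69 ± 0.28 with MPA, the bikunin precursor Ambp by -1.06 ± 0.41 and the heavy chain gene Itih3 by -0.44 ± 0.21. With NET-A the brain proteoglycan Bcan, well above background on 3 NET-A arrays and 2 of placebo_N, differed by 2.56 ± 0.89, Hapln4 by 0.79 ± 0.36 and fibulin Fbln1 by -0.27 ± 0.12. Only the Fbln1 groups did not overlap among these 6 differences, and none passed (limma, smallest adjusted p = 0.768 and 0.707).

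The proteases that cleave versican and aggrecan had lower values in 8 of 9 genes with MPA and in 4 of 8 with NET-A, the latter near the share over all genes. Macrophage elastase, Mmp12, differed by -0.95 ± 0.28 with MPA, without overlap, and by -0.78 ± 0.43 with NET-A. Adamts1 differed by -0.43 ± 0.21 with MPA and 0.43 ± 0.29 with NET-A, Adamts9 by -0.37 ± 0.20 with MPA, and the aggrecanase Adamts4 by -0.47 ± 0.21 with NET-A. Genes for chondroitin sulphate, the sugar carried by both proteoglycans, had lower values in 10 of 18 with MPA and 8 of 19 with NET-A. The smallest p-values there belonged to Dse at -0.34 ± 0.17, Chsy3 at -0.45 ± 0.25 and Chst15 at -0.31 ± 0.19 with MPA, and to Chsy1 at -0.31 ± 0.15, Chst15 at 0.23 ± 0.13 and Xylt1 at -0.29 ± 0.19 with NET-A.

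Genes alike in pattern were sought among 14138 genes by Pearson's r over the 16 arrays, with the mean of each experiment subtracted. The arrays share slides, treatments and scaling, so r is a description. The overlapping Cemip probes had the desmosome gene Pkp1 at r of 0.86 and 0.88, while the main Cemip probe had Gm11938 at 0.80. The 10-spot Cd44 probe had Osmr and Cxcl16 at 0.94 and 0.92, and the main Cd44 probe Cx3cl1 at 0.89. Hyal1 had Rbpms at 0.90 and, on its other probe, Stim1 at 0.87. Hyal2 had Uimc1 at 0.89, Acan had Fam174c at 0.92, the splice-crossing Vcan probe Snrnp35 at 0.88 and Has2 had 3110040N11Rik at 0.81. Between members of different genes the highest r was 0.67, for Cemip A_51_P456114 with the main Cd44 probe, and the lowest was -0.61, for Hyal1 A_51_P479408 with the 10-spot Cd44 probe. The overlapping probes themselves had r of 0.98 in Cemip and 0.82 in Hyal1.

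Progestins act through receptors that bind DNA, so promoters are shown for Cemip and Hyal1, the genes with overlapping probes that stood apart from placebo, and for Has1, the synthase whose NET-A interval lay below 0. Each is the 250 bases before the annotated start, 5′ to 3′ on the strand of the gene, from RefSeq on GRCm38.p6, with motif matches in capitals. The table held 8 of the 10 genes.

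Cemip, chr7:84086506-84086755, minus strand: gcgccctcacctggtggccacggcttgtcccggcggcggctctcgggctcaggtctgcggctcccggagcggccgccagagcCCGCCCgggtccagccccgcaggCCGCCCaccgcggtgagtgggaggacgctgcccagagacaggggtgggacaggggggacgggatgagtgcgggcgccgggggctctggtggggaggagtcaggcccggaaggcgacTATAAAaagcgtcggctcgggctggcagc

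Hyal1, chr9:107576700-107576949, plus strand: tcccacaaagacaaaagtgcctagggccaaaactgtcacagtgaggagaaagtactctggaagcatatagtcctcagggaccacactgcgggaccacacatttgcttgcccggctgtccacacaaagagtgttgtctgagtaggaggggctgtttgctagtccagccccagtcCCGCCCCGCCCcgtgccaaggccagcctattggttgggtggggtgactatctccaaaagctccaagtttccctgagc

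Has1, chr17:17855189-17855438, minus strand: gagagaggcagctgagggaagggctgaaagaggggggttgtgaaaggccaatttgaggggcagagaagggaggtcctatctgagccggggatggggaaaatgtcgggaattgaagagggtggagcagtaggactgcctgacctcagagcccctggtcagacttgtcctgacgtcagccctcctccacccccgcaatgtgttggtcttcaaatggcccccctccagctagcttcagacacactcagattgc

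Both strands were searched for 4 motifs. The steroid receptor motif AGAACA, read as TGTTCT on the other strand, was in 0 of the 8 member promoters and in 16.1% of the 32851 promoters of the table. Its palindromic form GNACANNNTGTNC was in 0 of 8 and in 0.387%. The GC box GGGCGG was in 5 of 8, namely Acan, Cemip, Hyal1, Hyal2 and Vcan, and in 32.7% of all promoters. In Hyal1 it occurs at a pair of sites that overlap by 1 base, 77 to 67 bases before the start. The TATA box TATAAA was in 1 of 8, Cemip, from 29 to 24 bases before the start, and in 12.4% of all promoters. These matches describe letters in this window alone.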

How the data were processed

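Each of the 16 samples was hybridized to its own one-colour Agilent array. Per the file headers, the authors read spot intensity with Agilent Feature Extraction 10.7.1.1 for MPA and placebo_M and 11.0.1.1 for NET-A and placebo_N, on a design annotated on mm9. The deposited processed intensity is corrected for background within the array and not scaled between arrays. The deposited series table holds log2 values; how they were made is not given in the sources here. Its columns matched log2 signals after quantile normalization within an experiment and removal of each probe's median (r from 0.999 to 1.00), so scale, centring and direction are inferred.

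Outlier spots (0.515%) were left out, log2 intensity minus the array's 75th percentile was taken, spots of a probe were averaged and a gene took its brightest probe. Genes well above background on at least 4 of 8 arrays were tested with limma 3.58.1 in R 4.3.3 (two-sided, Benjamini-Hochberg threshold 0.05), each progestin against its own placebo. Symbols came from RefSeq for the 26690 probes matched by accession. The fit was tested on simulated data.

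The members and lists were chosen with earlier results of these data known. All member probes were reported, with the 3 smallest p-values of each pathway list and the most alike genes of each member well above background on at least 12 of the 16 arrays; a few genes these rules named are not reported here. Alternatives were normexp, quantile normalization, the dim-probe filter, outlier spots kept, the mean of a gene's probes, array weights, slide or replicate block, the deposited table, all 16 arrays, single slides and leaving out each array. Same-numbered samples of a progestin and its placebo deviated from their group means with correlations from -0.332 to 0.328. With 4 arrays a group, these values did not show a pairing by number and cannot exclude it. The number of arrays limits the precision.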

Additional observations from a re-analysis of the deposited data

Results flagged for a closer look

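Among 66 examined groups of 4 arrays, each of 1 member probe, 4 groups held an array far from the others, by a test on the gap to the nearest array. Chance gives about 1 in 20. Placebo_N replicate 4 accounts for 3 of them. It read 2.08 for the 10-spot Cd44 probe, beside 1.26 to 1.34 in the others, -0.76 for Acan, beside -0.08 to -0.02, and -3.79 for Has2 probe A_52_P327764, beside -4.75 to -4.59. On the same array the mean log2 level of the 8 macrophage markers was 1.79, beside 0.42 to 0.73 on the other placebo_N arrays. The fourth is placebo_M replicate 4, which read -2.60 for Cemip probe A_51_P456113, beside -3.61 to -3.44. The macrophage and chondrocyte means of that array, 2.76 and 0.92, were the highest of its group. The causes were not tested.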

How the results depend on the processing

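No member value passed the limma test in the 1001 values over 47 results and their alternatives, and 64 values of 22 results changed sign. The count of genes passing was 0 except for 1 with slide as a block and 1 over all 16 arrays for MPA, and 1 with the replicate block for the difference of responses; leaving out single arrays gave 0 to 1 (1 without NET-A replicate 1). The replicate block turned no member value. The Cemip pair kept its direction with NET-A in all 19 alternatives (-3.64 to -1.64 and -3.28 to -1.52), and Hyal1 with MPA in all 21 (0.32 to 0.77). Normexp with mean signals turned, for MPA, Hapln1 (0.63, other probe 0.62), Has2 (0.61), Hyal2 (-0.15), Vcan (-0.20, other probe 0.0677) and the Cemip pair (0.67 and 0.27). Normexp with median signals, chosen after seeing the data because the NET-A files held no mean signals, turned Hapln1 (-0.14, other probe -0.23) and Has3 (-0.51) for NET-A, and Hapln1 (0.76, other probe 0.86), Has2 (1.17), Hyal1 (-0.21) and Vcan (-0.0728) for the difference. The mean over probes gave Cemip -0.39 and Has2 0.11 for MPA, and Cd44 0.14 and Has2 0.50 for the difference. Array weights gave Vcan -0.0745 for MPA, 0.0752 for NET-A and -0.0811 for the difference, and Has3 -0.52 for NET-A. Quantile normalization turned Cd44 to 0.039 in the difference, and with the deposited table it was 0.0348. Slide 1 alone gave Hapln1 0.69 (other probe 0.35), Hyal2 -0.15 and the Cemip pair 0.33 and 0.069 for MPA, and slide 2 alone Acan -0.15. Leaving out single arrays gave, for MPA, Hapln1 -0.70 to 0.38 (other probe -0.78 to 0.10), Hyal2 -0.0299 to 0.17, Vcan -0.0227 to 0.10 (other probe -0.24 to 0.13); for NET-A, Has3 -0.49 to 0.88, Vcan -0.23 to 0.0539 (A_52_P1044655 -2.05 to 0.30); and for the difference, Cd44 -0.20 to 0.0935 (10-spot probe -0.31 to 0.000982), Has2 -0.42 to 0.23 and Vcan -0.0258 to 0.25. The causes were not tested. Slides 3 and 4 hold 1 array a group and could not be fitted alone. Values of dim probes (Has1, Has2, Has3, Hapln1 and the Cemip pair) are limited by signal over background.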
